A study of Homo sapiens with 12 samples.

Results

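The endoplasmic reticulum (ER) folds secreted and membrane proteins, and the 34 genes described here encode its folding machinery, its stress sensors and its disposal route. They were taken by symbol from a list of ER folding and unfolded protein response genes and not by a rule on their measured values. The list was drawn up with earlier results of these data known. All 34 were found among the 25369 rows of the count table. They were grouped by role into 3 Hsp70 and Hsp90 chaperones, 6 co-chaperones and small folding factors, 3 genes of the glycoprotein folding cycle, 4 disulfide isomerases, 2 disulfide oxidases, 4 stress sensors and transcription factors, 10 genes of ER-associated degradation and 2 translocon subunits. Poly(A)+ RNA of 3 human cancer cell lines was sequenced after 24 h in normoxia or in hypoxia at 1% O2. RKO is labelled a colon carcinoma line and was grown in DMEM, A549 is a lung adenocarcinoma line and was also grown in DMEM, and H460 is a lung large cell carcinoma line and was grown in RPMI, so that line, tissue and medium cannot be told apart. There were 12 libraries, 2 independent cultures for each of the 6 combinations of line and oxygen, and the labels name no other treatment. Each is an established line represented by its own cultures, so differences between lines describe these cultures and not their tissues.

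Proteins enter the ER through the Sec61 channel. BiP (HSPA5) and other chaperones hold them while they fold, calnexin and calreticulin retain glycoproteins that are still immature, and disulfide isomerases place their disulfide bonds. The isomerases are re-oxidised by the ERO1 oxidases, which pass electrons to oxygen. Proteins that fail to fold are sent back to the cytosol for degradation by the proteasome. When unfolded proteins build up, the sensors IRE1 (ERN1), PERK (EIF2AK3) and ATF6 start the unfolded protein response, in which IRE1 splices the mRNA of the transcription factor XBP1, ATF6 is cleaved into a transcription factor and PERK slows translation while favouring that of ATF4.

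Depth is the number of reads counted in genes. Total counts ran from 27350424 to 41757584 per library. Levels are given as RPKM, reads per kilobase of gene scaled to a common number of reads, after TMM scaling, which sets libraries to a common level from the bulk of their genes. Effects are log2 fold changes of hypoxia over normoxia ± SE from edgeR, fitted in each line over all expressed genes, and adjusted p is the Benjamini-Hochberg value of its quasi-likelihood test. A gene is called higher or lower when adjusted p was under 0.1 and the fold change over 1.5. In bulk RNA, more RNA per cell and more cells that express a gene cannot be told apart. The TMM factors were 0.791 and 0.837 in hypoxic H460 but 1.04 and 1.06 in normoxic H460, and scaling by library size alone lowered the median effect over all H460 genes by 0.35 on the log2 scale. The other lines moved by less, 0.08 in RKO and -0.09 in A549. The second normoxic library of A549 stood apart in stress genes that are not members. TRIB3, a pseudokinase of the stress response, was at 123 RPKM there and at 27.5 RPKM in the first, and PPP1R15A, a phosphatase subunit that restores translation, was at 54.1 and 16.2 RPKM. The A549 results below are therefore also given without that library where it decides them. Tissue markers were mostly absent. Of 6 colon markers, CDX2 alone passed 1 RPKM in RKO (summed level 6.43 to 6.58 RPKM in normoxia and 3.997 to 5.382 RPKM in hypoxia), and CDX1, VIL1, LGR5 and CEACAM5 had 0 reads there. Of 5 lung markers, the surfactant gene SFTPA1 had 0 reads in both lung lines, and the summed level was 2.48 to 2.87 RPKM in normoxic and 3.25 to 3.63 RPKM in hypoxic A549. In H460 the same sum was 0.333 to 0.507 RPKM in normoxia and 1.84 to 1.86 RPKM in hypoxia. Epithelial markers, 5 in all, summed to 1028 to 1103 RPKM in normoxic and 1435 to 1559 RPKM in hypoxic H460, to 1340 to 1636 and 1269 to 1296 RPKM in A549, and to 118.6 to 125.9 and 64.9 to 67.8 RPKM in RKO. The 5 did not go together. In H460, EPCAM was at most 0.289 RPKM and CDH1 at most 0.129 RPKM, while KRT19 ran from 386 to 1015 RPKM. KRT19 was at most 0.562 RPKM in A549 and 0.901 RPKM in RKO, and CDH1 at most 0.0221 RPKM in RKO. Of 9 leukocyte, endothelial and fibroblast markers, CD3E had 0 reads in every library and PTPRC at most 3. Their sum was higher in the hypoxic libraries of each line. It was 16.9 to 17.7 RPKM in normoxic and 31.1 to 35.5 RPKM in hypoxic H460, 233 to 257.5 and 306 to 348 RPKM in RKO, and 79.4 to 98.9 and 109 to 161 RPKM in A549, and CD68, a lysosomal protein, was the largest part of it in most libraries. The part of these markers in the results was not tested.

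Promoters were searched because an ER stress response element, the letters CCAAT and CCACG held 9 bases apart, is the textbook binding site of ATF6 and of the CCAAT-binding factor NF-Y at folding genes. Windows of 300 bases, 250 before and 50 after the RefSeq start (table build GRCh38.p14), were found for 31 of the 34 members, and PDIA3, DERL1 and DERL3 had no entry. On either strand, 7 of the 31 windows held the complete element (22.6%), against 27 of 35116 windows in the whole table (0.0769%) and 1 of 96 for other ER genes (1.04%). Because the element was chosen as one of folding genes, its excess among them is a description and not a test. Both strands were searched for every motif, and the counts below are windows. These 7 were HSPA5, HSP90B1, CRELD2, CALR, CANX, PDIA6 and ERO1LB, and HSP90B1 held it at 2 positions. The shorter variant, ATTGG and CCACG held 1 base apart, was in the windows of HYOU1, SDF2L1 and HERPUD1, 3 of 31 (9.68%, against 0.0541% of all windows). In HYOU1 and HERPUD1 this variant overlaps the hypoxia core described next. The core ACGTG that hypoxia-inducible factors bind is far more common. It was in 14 of 31 member windows (45.2%), in 41.7% of the windows of other ER genes and in 21.4% of all windows. The letters TGACGTGG, which contain that core and are also the core of the XBP1 site, were in 1 member window, that of HYOU1 (3.23%, against 9.38% of the windows of other ER genes and 0.729% of all). The 250 bases before the start are shown for the 6 members with the complete element that had the highest mean levels, with the bases of both half-sites in capitals, and for ERO1L, whose window has the hypoxia core in capitals instead (CACGT, which reads ACGTG on the other strand).
HSPA5: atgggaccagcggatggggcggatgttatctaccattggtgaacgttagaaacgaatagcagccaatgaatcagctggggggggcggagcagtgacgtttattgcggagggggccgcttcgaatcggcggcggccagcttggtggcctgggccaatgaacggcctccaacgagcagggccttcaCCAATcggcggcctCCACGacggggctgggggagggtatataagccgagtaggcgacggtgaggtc
HSP90B1: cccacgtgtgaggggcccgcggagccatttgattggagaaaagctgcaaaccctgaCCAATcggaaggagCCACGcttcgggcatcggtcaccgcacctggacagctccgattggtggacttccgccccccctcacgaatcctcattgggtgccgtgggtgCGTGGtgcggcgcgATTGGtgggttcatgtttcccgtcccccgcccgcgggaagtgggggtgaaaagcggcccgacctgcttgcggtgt
CALR: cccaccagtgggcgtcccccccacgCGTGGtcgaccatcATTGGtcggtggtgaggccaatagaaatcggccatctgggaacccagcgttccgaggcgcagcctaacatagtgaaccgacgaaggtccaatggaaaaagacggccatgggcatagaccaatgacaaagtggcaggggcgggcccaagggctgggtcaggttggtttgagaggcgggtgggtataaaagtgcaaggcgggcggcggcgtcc
CANX: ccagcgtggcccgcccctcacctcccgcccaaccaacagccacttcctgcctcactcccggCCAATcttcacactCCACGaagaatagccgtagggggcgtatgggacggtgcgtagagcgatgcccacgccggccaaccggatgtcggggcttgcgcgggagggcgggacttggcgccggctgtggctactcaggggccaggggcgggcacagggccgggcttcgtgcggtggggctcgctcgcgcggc
PDIA6: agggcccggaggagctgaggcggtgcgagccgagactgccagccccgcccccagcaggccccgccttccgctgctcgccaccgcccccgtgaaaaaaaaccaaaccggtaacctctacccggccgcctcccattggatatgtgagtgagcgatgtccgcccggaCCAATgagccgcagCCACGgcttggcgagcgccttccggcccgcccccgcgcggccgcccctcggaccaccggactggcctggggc
CRELD2: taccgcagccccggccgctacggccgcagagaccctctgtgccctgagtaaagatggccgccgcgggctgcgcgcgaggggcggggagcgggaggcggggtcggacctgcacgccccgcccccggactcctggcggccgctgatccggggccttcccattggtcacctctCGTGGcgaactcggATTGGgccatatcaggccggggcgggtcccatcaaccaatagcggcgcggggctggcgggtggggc
ERO1L: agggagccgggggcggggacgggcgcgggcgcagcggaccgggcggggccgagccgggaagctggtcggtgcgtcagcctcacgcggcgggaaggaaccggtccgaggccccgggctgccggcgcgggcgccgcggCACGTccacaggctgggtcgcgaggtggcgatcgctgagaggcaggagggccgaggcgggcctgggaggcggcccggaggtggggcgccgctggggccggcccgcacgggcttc
Each 300-base window matched GRCh37, the build of the count table, at a single place. The printed bases lie at chr9:128003623-128003872 on the minus strand, chr12:104323938-104324187 on the plus strand, chr19:13049173-13049422 on the plus strand, chr5:179125718-179125967 on the plus strand, chr2:10952912-10953161 on the minus strand, chr22:50312032-50312281 on the plus strand and chr14:53162277-53162526 on the minus strand. The start of transcription differs a little between annotations. The last 44 printed bases of HSPA5, 77 of HSP90B1, 10 of CALR, 39 of CANX, 5 of CRELD2 and 143 of ERO1L lie inside the gene as the count table bounds it, and the PDIA6 window lies wholly inside it because that table starts PDIA6 further upstream.

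The motifs are descriptions of the windows and not measured sites. In H460, 5 of the 7 members with the complete element were called higher, HSPA5, HSP90B1, CANX, PDIA6 and ERO1LB, and 11 of the 24 without it. In RKO, 1 of the 7 was called higher, ERO1LB, and 6 of the 24. Of the 14 members with the hypoxia core, 11 were called higher in H460 and 4 in RKO, against 5 and 3 of the 17 without it. Of all tested genes, 24.6% were called higher in H460 and 18.8% in RKO. The share called among all genes whose windows hold a motif was not computed, and a link between motif and call was not tested. HSP90B1, CANX and PDIA6 hold both kinds of motif, so the 2 counts share members.

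The question put to the 3 lines was how the transcripts of the folding machinery stood after a day at low oxygen. In H460, 16 of the 34 members were called higher and 2 lower, or 47.1% and 5.88%, where 24.6% and 27.3% of all 14080 tested genes were called higher and lower. The median effect was 0.53 for the members and -0.04 for all genes. In RKO, 8 were called higher and 2 lower (23.5% and 5.88%), against 18.8% and 15.1% of all 12817 tested genes, with medians of 0.09 and 0.01. In A549, 33 members passed the filter on low counts, 1 of them was called higher (3.03%) and 0 lower, against 2.22% and 0.456% of all 14251 tested genes, with medians of 0.14 and -0.01. At an unadjusted p under 0.05 in edgeR, 4 A549 members passed, ERO1L, HSP90B1 and PDIA3 with higher levels and ERN1 with lower, and DESeq2 also called 0 members lower there. With replicate number as a block in the edgeR fit, HSP90B1, MANF, PDIA3, PDIA4, PDIA6 and EDEM1 were higher with adjusted p from 0.0121 (MANF) to 0.0837 (PDIA4). These missed the fold threshold, and ERN1 was then called lower. The share of all counts that the members took was 1.44% and 1.28% in the normoxic and 2.00% and 1.80% in the hypoxic H460 libraries. It went from 0.777% and 0.815% to 0.935% and 1.06% in RKO, and from 0.925% and 0.868% to 1.05% and 0.930% in A549, so that the groups overlapped in no line.

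**Figure D1:**
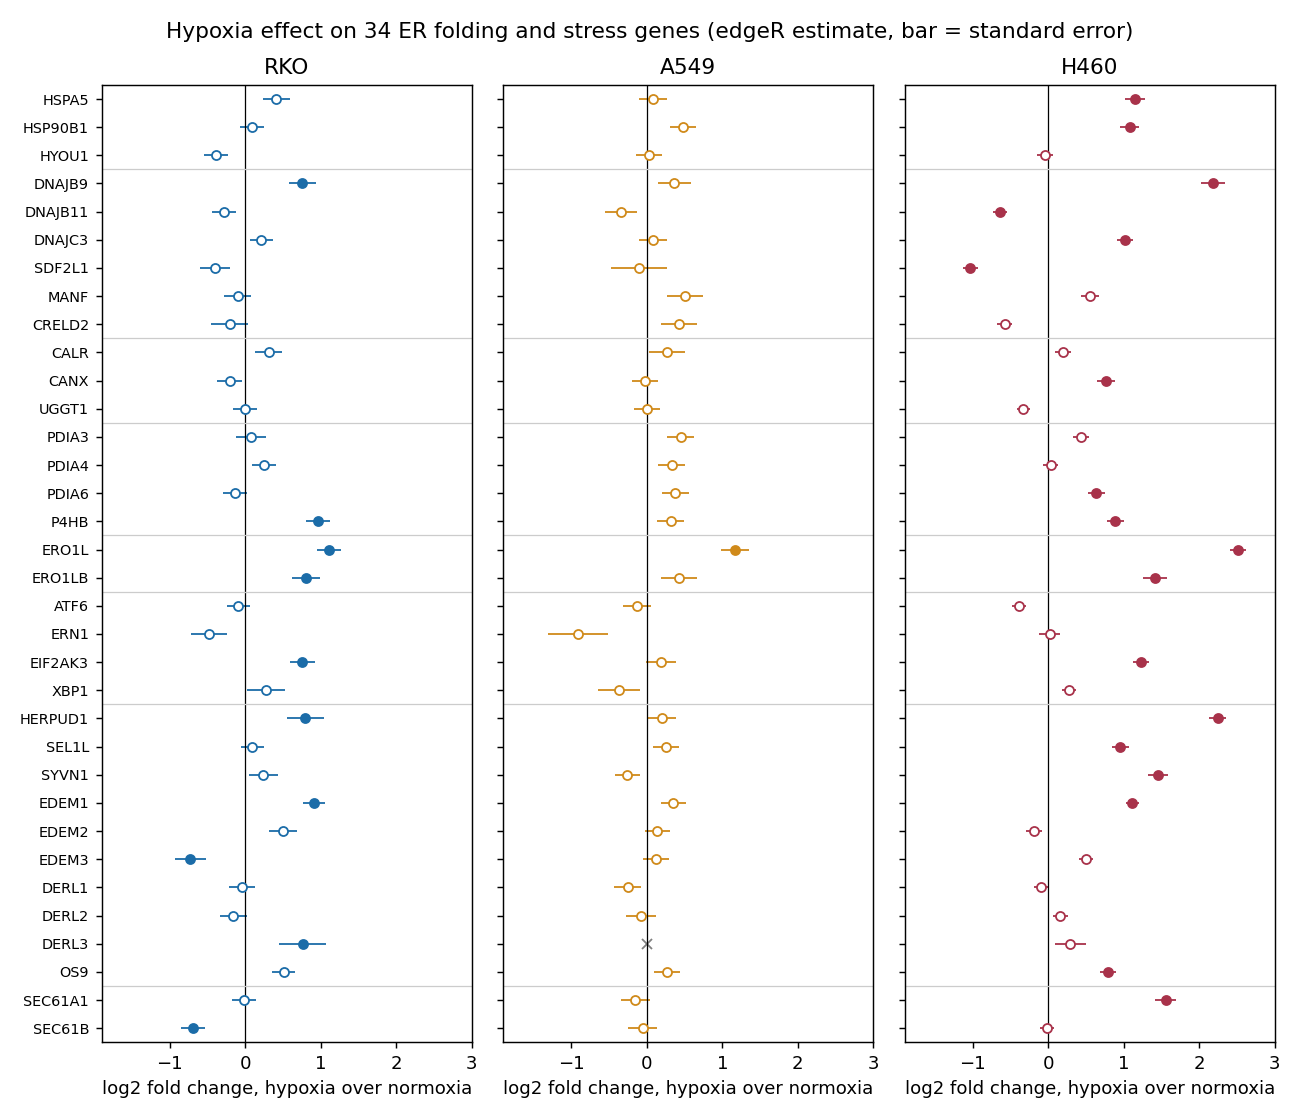
Effect of hypoxia on each of the 34 members in RKO, A549 and H460, as the log2 fold change of hypoxia over normoxia with its standard error (horizontal axis), ordered and divided by role. Filled points were called and open points were not, and the grey cross marks DERL3, which was not tested in A549. In H460, 16 filled points lie above 0 and 2 below, whereas A549 has 1 filled point, ERO1L.

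With library size alone in place of TMM, H460 had 12 members called higher and 5 lower, and all genes there shifted to 14.7% higher and 40.9% lower. The 4 members that then lost the higher call were CANX, P4HB, OS9 and PDIA6, and the 3 that joined DNAJB11 and SDF2L1 among the lower were ATF6, CRELD2 and UGGT1. Only ERO1L was called higher in all 3 lines. With it, 7 members were called higher in both RKO and H460: ERO1L, ERO1LB, P4HB, DNAJB9, EIF2AK3, HERPUD1 and EDEM1. A further 9 were called higher in H460 and in neither other line, namely HSPA5, HSP90B1, DNAJC3, CANX, PDIA6, SEL1L, SYVN1, OS9 and SEC61A1. In RKO, HSPA5 (edgeR adjusted p = 0.0975) and OS9 (0.51 ± 0.15, adjusted p = 0.0235) missed only the fold threshold. With library size alone, OS9 was called higher in RKO as well. No member was called in opposite directions in 2 lines. The shares of all genes with these patterns across lines were not computed. The median SE over tested genes was 0.11 in H460, 0.18 in RKO and 0.22 in A549. An effect of a given size therefore passed more readily in H460, and a call in 1 line alone does not show a difference between lines.

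Both disulfide oxidases were called higher in RKO and H460, and ERO1L in A549 as well. ERO1L, now named ERO1A, encodes the ERO1-alpha oxidase and lies on chromosome 14 of GRCh37 (53108604 to 53162419, minus strand). It was at 47.5 and 43.7 RPKM in normoxia and 114 and 91.6 RPKM in hypoxia in RKO. Its A549 levels were 35.6 and 33.6 RPKM in normoxia and 69.0 and 87.7 RPKM in hypoxia, and those of H460 were 37.4 and 33.8 RPKM in normoxia and 221 and 189 RPKM in hypoxia. Both hypoxic libraries were above both normoxic ones in every line. The log2 fold change was 1.11 ± 0.16 in RKO (adjusted p = 0.000648), 1.17 ± 0.19 in A549 (adjusted p = 0.0223) and 2.51 ± 0.11 in H460 (adjusted p = 4.13e-09). The H460 effect was 5.71-fold, and the normoxic levels of no pair of lines differed past the thresholds. Without A549 hypoxia replicate 1 the A549 effect was 1.33, and without replicate 2 it was 0.99, both still called.

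ERO1LB, now ERO1B, encodes the ERO1-beta oxidase and was far less abundant than its paralogue per length of gene. It stood at 3.74 and 2.99 RPKM in normoxia and 6.51 and 5.78 RPKM in hypoxia in RKO, at 1.66 and 1.90 RPKM in normoxia and 2.22 and 2.58 RPKM in hypoxia in A549 and at 3.62 and 3.07 RPKM in normoxia and 10.7 and 7.27 RPKM in hypoxia in H460. The groups did not overlap in any line. The effect was 0.81 ± 0.19 in RKO (adjusted p = 0.00668) and 1.41 ± 0.16 in H460 (adjusted p = 8e-06), whereas the A549 effect of 0.42 ± 0.24 did not pass (adjusted p = 0.413).

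Of the ER-associated degradation genes, 5 of 10 were called higher in H460, 3 in RKO and 0 of 9 tested in A549. Of all tested genes, 24.6%, 18.8% and 2.22% were called higher in these lines. HERPUD1, a membrane scaffold of the ubiquitin ligase complex and a well known stress target, had the second largest effect of any member in H460. There it was at 98.1 and 82.2 RPKM in normoxia and 452 and 409 RPKM in hypoxia, or 4.74-fold (log2 2.24 ± 0.11, adjusted p = 1.09e-08). In RKO it was at 29.1 and 17.9 RPKM in normoxia and 51.2 and 34.2 RPKM in hypoxia, and each replicate 2 was well below its replicate 1. The RKO effect of 0.80 ± 0.24 was called (adjusted p = 0.0234), as was that with replicate number as a block (0.81, adjusted p = 1.93e-06). The effect without the block lost the call without hypoxia replicate 1 (0.54) or normoxia replicate 2 (0.49). A549 levels, 28.7 and 38.6 RPKM in normoxia and 37.8 and 39.8 RPKM in hypoxia, overlapped.

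SYVN1 encodes HRD1, the ubiquitin ligase of this route, and SEL1L its partner. SYVN1 was at 15.9 and 13.9 RPKM in normoxia and 47.0 and 35.2 RPKM in hypoxia in H460, where both hypoxic libraries were far above the normoxic ones. In RKO it was at 15.6 and 22.4 RPKM in normoxia and 22.4 and 24.5 RPKM in hypoxia, which overlapped, and in A549 at 24.5 and 26.3 RPKM in normoxia and 21.4 and 21.2 RPKM in hypoxia, where both hypoxic libraries were below the normoxic ones. The effect in H460 was 1.45 ± 0.13 (adjusted p = 9.21e-07), and the values of 0.24 ± 0.19 in RKO and -0.26 ± 0.17 in A549 did not pass (adjusted p = 0.343 and 0.47). SEL1L rose in H460 from 18.7 ± 1.60 to 36.6 ± 4.96 RPKM (SD, n = 2, log2 0.96 ± 0.11, edgeR adjusted p = 7.59e-06), and OS9, a lectin that hands misfolded glycoproteins to the ligase, from 83.3 ± 8.62 to 145 ± 10.2 RPKM (log2 0.79 ± 0.10, adjusted p = 2.14e-05). The SEL1L effect fell under the fold threshold with limma on log2 RPKM plus 1 (0.58), and that of OS9 with library size scaling (0.44).

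The EDEM proteins trim mannose from glycoproteins bound for disposal, and their 3 transcripts were not called alike. EDEM1 was at 22.8 and 21.8 RPKM in normoxia and 46.0 and 41.3 RPKM in hypoxia in RKO, 12.5 and 13.04 RPKM in normoxia and 15.9 and 16.9 RPKM in hypoxia in A549 and 18.2 and 17.6 RPKM in normoxia and 39.9 and 38.0 RPKM in hypoxia in H460, and the groups were separate in each line. It was called higher in H460 (1.11 ± 0.09, adjusted p = 3.2e-07) and also in RKO, by 0.91 ± 0.15 (adjusted p = 0.0012), while A549 gave 0.35 ± 0.16 (adjusted p = 0.324). EDEM3 was at 5.72 and 5.81 RPKM in normoxia and 2.96 and 4.29 RPKM in hypoxia in RKO and was called lower there (-0.73 ± 0.20, adjusted p = 0.017), though without hypoxia replicate 1 the fold fell short of the threshold (-0.43). In H460 it was at 17.6 and 16.0 RPKM in normoxia and 23.8 and 24.1 RPKM in hypoxia, with both hypoxic libraries higher and an effect of 0.50 ± 0.09 that had an adjusted p of 0.000279 but missed the fold threshold. A549 gave 0.12 ± 0.17 for EDEM3, with levels of 8.63 ± 0.244 RPKM in normoxia and 9.42 ± 0.593 RPKM in hypoxia (SD, n = 2) and the hypoxic libraries above the normoxic ones. EDEM2 was called in no line, and its levels were 8.04 and 8.84 RPKM in normoxia and 11.6 and 13.3 RPKM in hypoxia in RKO and 44.4 and 35.9 RPKM in normoxia and 35.7 and 35.4 RPKM in hypoxia in H460. Of the derlins, channel proteins of the same route, DERL1 and DERL2 were called in no line. DERL3 was at 0.507 and 0.578 RPKM in normoxia and 0.959 and 0.960 RPKM in hypoxia in RKO and was called higher there (0.76 ± 0.31, edgeR adjusted p = 0.0759), on 61 to 124 reads per library. That call was lost when any 1 of the 4 RKO libraries was left out and with DESeq2 (adjusted p = 0.135). In A549 it had 3 to 19 reads and was not tested.

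Among the Hsp70 and Hsp90 chaperones, HSPA5 and HSP90B1 were called higher in H460 and neither was called elsewhere. HSPA5 encodes BiP, the chief Hsp70 of the ER, and HSP90B1 encodes GRP94, its Hsp90. HSPA5 was at 291 and 251 RPKM in normoxia and 419.7 and 334 RPKM in hypoxia in RKO, 281 and 303 RPKM in normoxia and 343 and 277 RPKM in hypoxia in A549 and 638 and 577 RPKM in normoxia and 1512 and 1204 RPKM in hypoxia in H460. The groups were separate in RKO and H460 and overlapped in A549. The effect was 1.15 ± 0.13 in H460 (adjusted p = 6.82e-06), 0.41 ± 0.18 in RKO (adjusted p = 0.0975, under the fold threshold) and 0.08 ± 0.18 in A549 (adjusted p = 0.867). The A549 value turned to -0.01 under library size scaling and to -0.08 without hypoxia replicate 1. HSP90B1 was at 647 and 558 RPKM in normoxia and 1401 and 1166 RPKM in hypoxia in H460, 425 and 390.5 RPKM in normoxia and 597 and 549.5 RPKM in hypoxia in A549 and 185 and 189 RPKM in normoxia and 196 and 218 RPKM in hypoxia in RKO. Hypoxic libraries were above normoxic ones in each line, by little in RKO. The effects were 1.08 ± 0.12 in H460 (adjusted p = 8.32e-06), 0.48 ± 0.17 in A549 (adjusted p = 0.224) and 0.09 ± 0.16 in RKO (adjusted p = 0.687). HYOU1, a large Hsp70-like chaperone, was called in no line, and in H460 its levels of 82.7 and 68.9 RPKM in normoxia and 79.1 and 69.2 RPKM in hypoxia overlapped. In RKO it was lower in both hypoxic libraries, at 40.9 and 47.7 RPKM in normoxia and 33.6 and 36.8 RPKM in hypoxia. The RKO effect of -0.39 ± 0.16 had an adjusted p of 0.0728 and missed the fold threshold. HSPA5, HSP90B1 and PDIA3 have processed pseudogenes elsewhere in the genome, so reads that map to both could have been dropped or shared upstream.

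The co-chaperones of BiP did not move together. DNAJB9 (ERdj4), which delivers clients to BiP, was at 9.02 and 7.45 RPKM in normoxia and 15.2 and 13.8 RPKM in hypoxia in RKO, 5.17 and 6.03 RPKM in normoxia and 6.88 and 7.57 RPKM in hypoxia in A549 and 4.87 and 3.53 RPKM in normoxia and 21.3 and 16.9 RPKM in hypoxia in H460. All hypoxic values were above the normoxic ones of the same line. It was called higher in H460 (2.18 ± 0.16, adjusted p = 1.79e-07) and RKO (0.76 ± 0.18, adjusted p = 0.00707) but was not called in A549, where the effect was 0.36 ± 0.22 (adjusted p = 0.446). DNAJC3 (p58IPK), another J-domain partner of BiP, was at 9.91 and 9.18 RPKM in normoxia and 21.6 and 17.3 RPKM in hypoxia in H460 and was called higher there (1.01 ± 0.11, adjusted p = 4.84e-06). It was at 15.8 and 14.4 RPKM in normoxia and 17.6 and 19.0 RPKM in hypoxia in RKO and 10.3 and 9.63 RPKM in normoxia and 11.7 and 9.52 RPKM in hypoxia in A549, where the effects of 0.21 ± 0.15 and 0.08 ± 0.19 did not pass.

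Other members of the same role went down in H460. SDF2L1, which works in a complex with DNAJB11, was at 75.3 and 66.6 RPKM in normoxia and 35.8 and 34.1 RPKM in hypoxia in H460, where both hypoxic values were below both normoxic ones (-1.03 ± 0.10, adjusted p = 1.93e-06). DNAJB11 (ERdj3) went from 78.5 ± 6.70 to 50.9 ± 3.54 RPKM in H460 (SD, n = 2) and was also called lower (-0.63 ± 0.09, edgeR adjusted p = 7.43e-05), a call that missed the fold threshold without normoxia replicate 1 (-0.58) or hypoxia replicate 2 (-0.55). In RKO, SDF2L1 was at 33.0 and 33.0 RPKM in normoxia and 21.7 and 30.5 RPKM in hypoxia and its effect of -0.40 ± 0.20 did not pass (adjusted p = 0.143), but without hypoxia replicate 2 it was called lower (-0.67, adjusted p = 0.00937). In A549 it was at 28.6 and 13.3 RPKM in normoxia and 24.7 and 14.7 RPKM in hypoxia, so that the replicate 1 libraries were above the replicate 2 libraries whatever the oxygen. The small secreted factors MANF and CRELD2 were called in no line. CRELD2 was at 45.7 and 38.5 RPKM in normoxia and 29.0 and 27.8 RPKM in hypoxia in H460 and MANF at 199 and 177 RPKM in normoxia and 317 and 241 RPKM in hypoxia, the first lower and the second higher in both hypoxic libraries.

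**Figure D2:**
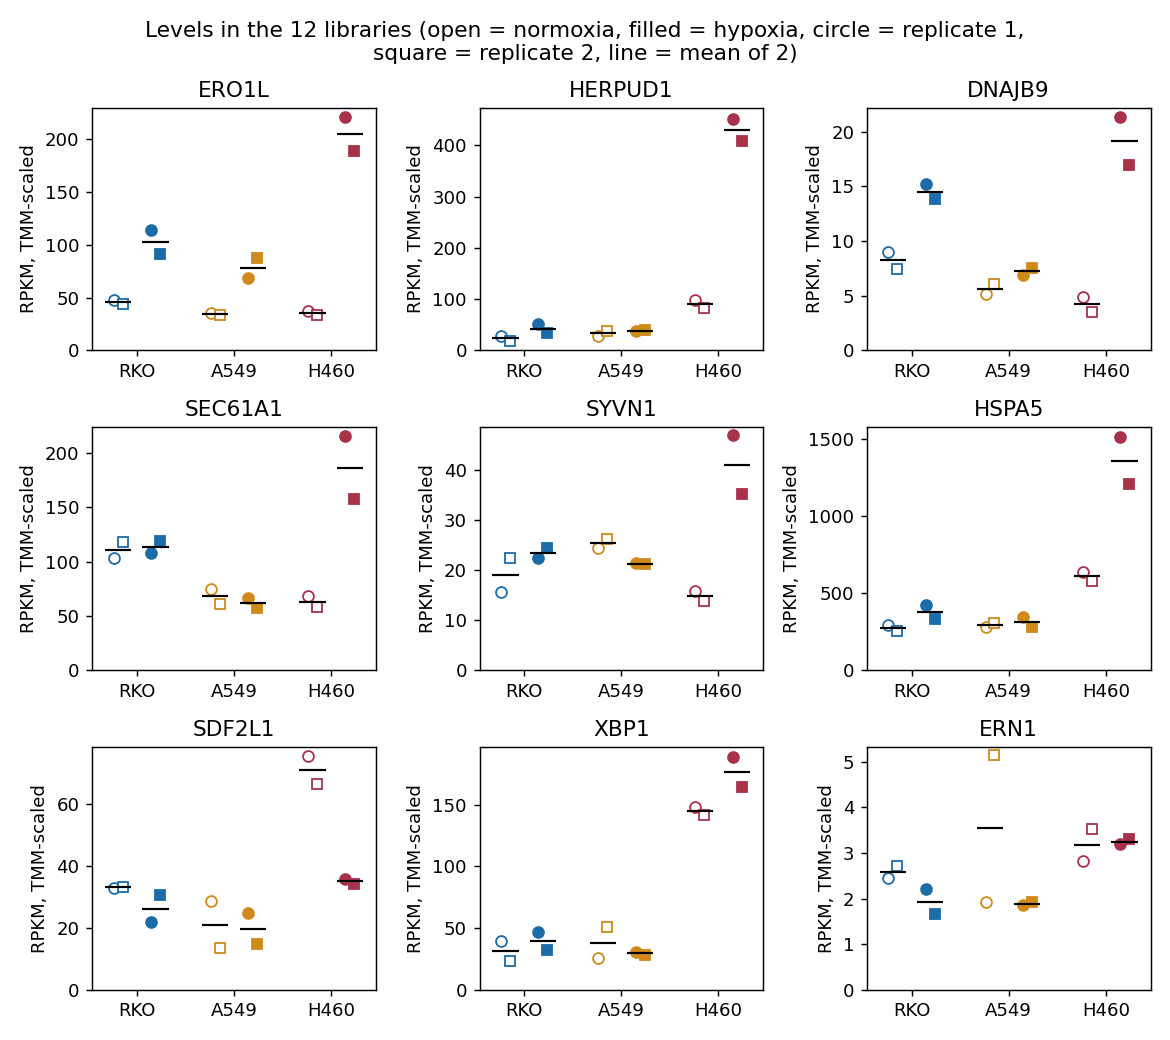
TMM-scaled RPKM (vertical axis, from 0) of 9 members in each of the 12 libraries, by line, with open symbols for normoxia, filled symbols for hypoxia, circles for replicate 1, squares for replicate 2 and a line at the mean of 2. The hypoxic H460 values stand above all others for ERO1L, HERPUD1, DNAJB9, SEC61A1, SYVN1 and HSPA5, SDF2L1 is lower in hypoxic H460, and the second normoxic A549 library is high for XBP1 and ERN1.

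The stress sensors responded unequally. EIF2AK3 encodes PERK, the kinase that slows translation, and was at 4.96 and 4.50 RPKM in normoxia and 8.22 and 8.45 RPKM in hypoxia in RKO, 4.74 and 4.52 RPKM in normoxia and 5.37 and 5.23 RPKM in hypoxia in A549 and 5.76 and 4.92 RPKM in normoxia and 13.1 and 12.1 RPKM in hypoxia in H460. The groups did not overlap in any line. It was called higher in H460 (1.23 ± 0.10, adjusted p = 7.58e-07) and RKO (0.76 ± 0.17, adjusted p = 0.00539), and the A549 effect was 0.19 ± 0.20 (adjusted p = 0.676). ATF6 was at 17.1 and 15.2 RPKM in normoxia and 16.6 and 15.1 RPKM in hypoxia in RKO, 8.33 and 10.2 RPKM in normoxia and 9.16 and 7.95 RPKM in hypoxia in A549 and 20.8 and 18.4 RPKM in normoxia and 14.7 and 15.6 RPKM in hypoxia in H460. Only in H460 were the groups separate, with hypoxia lower (-0.38 ± 0.09, adjusted p = 0.00281), which missed the fold threshold. With library size scaling the H460 value was -0.73 and passed both thresholds. RKO and A549 gave -0.09 ± 0.15 and -0.12 ± 0.18 for ATF6 (adjusted p = 0.663 and 0.783).

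ERN1 and XBP1 form the IRE1 arm, and gene counts do not show how much XBP1 mRNA was spliced. XBP1 was at 148 and 142 RPKM in normoxia and 189 and 164 RPKM in hypoxia in H460, 39.4 and 23.0 RPKM in normoxia and 46.8 and 32.0 RPKM in hypoxia in RKO and 25.5 and 50.4 RPKM in normoxia and 30.6 and 28.4 RPKM in hypoxia in A549. The 2 conditions overlapped in RKO and A549, and replicates within RKO differed more than the conditions did. In RKO, hypoxia was above normoxia in each same-numbered pair. With replicate number as a block the RKO effect was 0.30 (edgeR adjusted p = 0.0674, under the fold threshold). The effects were 0.27 ± 0.09 in H460 (adjusted p = 0.0214, under the fold threshold), 0.27 ± 0.25 in RKO and -0.37 ± 0.28 in A549, neither past the threshold (adjusted p = 0.411 and 0.552). The H460 value was -0.08 under library size scaling, the RKO value ranged from -0.07 to 0.71 as single libraries were left out and was called higher without normoxia replicate 1 (adjusted p = 0.0414), and the A549 value became 0.20 without normoxia replicate 2. ERN1 was at 2.44 and 2.71 RPKM in normoxia and 2.21 and 1.65 RPKM in hypoxia in RKO, 1.92 and 5.16 RPKM in normoxia and 1.85 and 1.92 RPKM in hypoxia in A549 and 2.83 and 3.52 RPKM in normoxia and 3.20 and 3.30 RPKM in hypoxia in H460. The high value in A549 came from the second normoxic library. Its effect of -0.91 ± 0.40 in A549 was not called (adjusted p = 0.294), and it was called lower with replicate number as a block (-0.76, adjusted p = 0.0289) and without normoxia replicate 1 (-1.45, adjusted p = 0.0178), but stood at -0.04 without normoxia replicate 2. The ERN1 effects of -0.48 ± 0.24 in RKO and 0.02 ± 0.14 in H460 did not pass (adjusted p = 0.135 and 0.898), though RKO was called lower without hypoxia replicate 1 (-0.64, adjusted p = 0.0831).

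In the disulfide isomerase group, P4HB was called higher in RKO and H460 and PDIA6 in H460. P4HB encodes protein disulfide isomerase itself, which is also a subunit of collagen prolyl hydroxylase. It was at 194 and 214 RPKM in normoxia and 404 and 424 RPKM in hypoxia in RKO and 519 and 442 RPKM in normoxia and 955 and 838 RPKM in hypoxia in H460, with the groups well apart, and at 480.4 and 406 RPKM in normoxia and 568 and 543 RPKM in hypoxia in A549. The called effects were 0.96 ± 0.16 in RKO (adjusted p = 0.00141) and 0.89 ± 0.11 in H460 (adjusted p = 2.42e-05). PDIA6 went from 229.6 ± 28.6 to 359.5 ± 20.6 RPKM in H460 (SD, n = 2, log2 0.64 ± 0.11, edgeR adjusted p = 0.000237) and fell under the fold threshold without normoxia replicate 2 (0.47). PDIA3 and PDIA4 were called in no line. All 4 isomerases had fold changes above 1 in A549 and none was called there (1 of the 4, PDIA3, had an unadjusted edgeR p under 0.05, and DESeq2 called 0). With replicate number as a block in edgeR, adjusted p was 0.0169 for PDIA3, 0.0458 for PDIA6, 0.0837 for PDIA4 and 0.107 for P4HB, and none was called.

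In the glycoprotein folding cycle, CANX (calnexin) was called higher in H460 alone, from 324 ± 34.9 to 554 ± 69.8 RPKM (SD, n = 2, log2 0.76 ± 0.12, edgeR adjusted p = 0.000125). Its soluble counterpart CALR (calreticulin) and the folding sensor UGGT1 were called in no line. CALR was at 439.8 and 488 RPKM in normoxia and 552 and 647 RPKM in hypoxia in RKO and 341 and 287 RPKM in normoxia and 386 and 338 RPKM in hypoxia in H460, overlapping in H460. The 2 translocon subunits differed. SEC61A1, the channel subunit, was at 68.5 and 57.8 RPKM in normoxia and 216 and 157 RPKM in hypoxia in H460, 103 and 118 RPKM in normoxia and 108 and 119 RPKM in hypoxia in RKO and 75.0 and 61.3 RPKM in normoxia and 66.1 and 57.5 RPKM in hypoxia in A549. The groups were separate in H460 and overlapped elsewhere. Its H460 effect was 1.55 ± 0.14 (adjusted p = 1.18e-06), beside -0.02 ± 0.16 in RKO and -0.15 ± 0.19 in A549, which did not pass and whose sign changed with scaling in RKO and with the libraries used in both. SEC61B, the small tail-anchored subunit, was called lower in RKO, from 171 and 161 to 98.1 and 116 RPKM (-0.69 ± 0.16, adjusted p = 0.00626), a call lost without hypoxia replicate 1 (-0.52). In H460 it was at 132 and 122 RPKM in normoxia and 133 and 119 RPKM in hypoxia, which overlapped.

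The 13 members called in no line were HYOU1, MANF, CRELD2, CALR, UGGT1, PDIA3, PDIA4, ATF6, ERN1, XBP1, EDEM2, DERL1 and DERL2. Their effects ran from -0.48 to 0.50 in RKO, from -0.91 to 0.51 in A549 and from -0.58 to 0.56 in H460, with ERN1, ERN1 and CRELD2 the lowest and EDEM2, MANF and MANF the highest. Some passed on edgeR adjusted p and missed only the fold threshold. In H460, CRELD2 (adjusted p = 0.000272), ATF6 (0.00281) and UGGT1 (0.00501) were lower, and MANF (0.00134), PDIA3 (0.0026) and XBP1 (0.0214) higher. In RKO, HYOU1 (0.0728) was lower and EDEM2 (0.0527) higher.

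**Figure D3:**
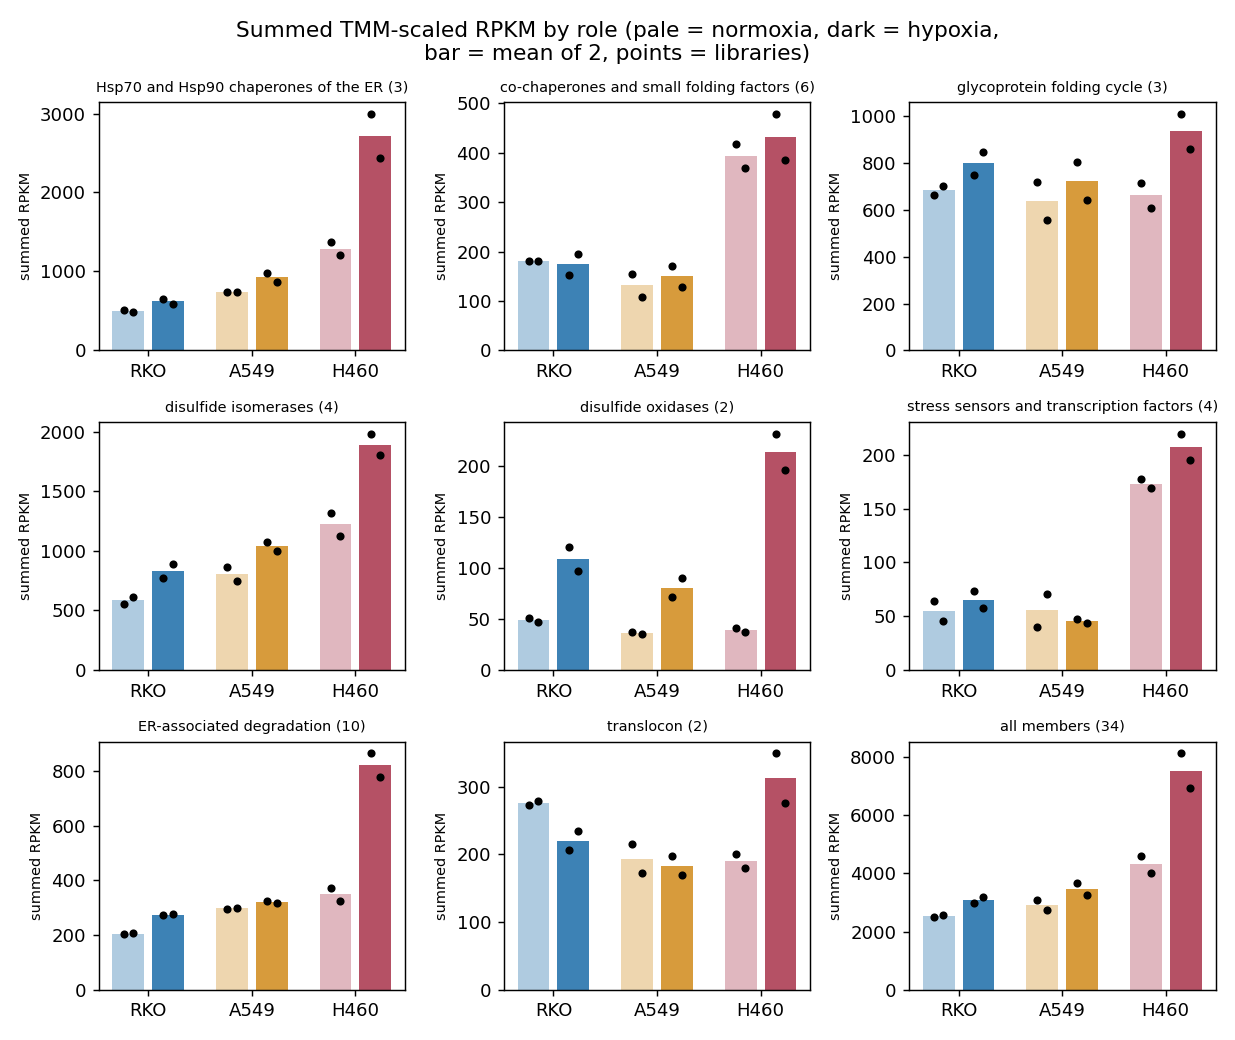
Summed TMM-scaled RPKM (vertical axis, from 0) of the members of each role and of all 34, with the number of genes in brackets, pale bars for normoxia, dark bars for hypoxia, bars at the mean of 2 and points for libraries. The sum of all members was 4609 and 4022 RPKM in normoxic and 8127 and 6935 RPKM in hypoxic H460, and that of the ER-associated degradation genes was 372 and 326.0 against 865 and 779 RPKM.

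Whether the lines differed in their response was tested directly with the interaction of line and oxygen in a joint edgeR fit of all 12 libraries. The test passed for 19 of the 34 members at an adjusted p under 0.1, or 55.9%, where 48.8% of all 15595 tested genes passed, so the members' share was near that of all genes. Of the 19, 13 passed with each of the 12 libraries left out in turn. With replicate number as a block, 25 members passed (73.5%), where 60.4% of all genes passed. The 6 added were HYOU1, SDF2L1, MANF, UGGT1, PDIA3 and OS9, with adjusted p from 0.0101 for SDF2L1 to 0.086 for HYOU1. Without the block, H460 and A549 differed in 16 members, where 36% of all genes differed, H460 and RKO in 14, where 37.6% did, and RKO and A549 in 4, where 14.6% did. In the same fit, the smallest adjusted p values of the interaction were those of SEC61A1 (0.000348), DNAJB9 (0.000596), SYVN1 (0.000642), ERO1L (0.000644) and HERPUD1 (0.000988). For HERPUD1 the A549 effect was below the H460 effect by 2.05 ± 0.32 on the log2 scale (A549 minus H460, adjusted p = 0.000617). The RKO effect of ERO1L minus that of H460 was -1.36 ± 0.23 (adjusted p = 0.000673), whereas RKO minus A549 was -0.02 ± 0.22 and did not pass. RKO and A549 differed in P4HB (0.69 ± 0.21, adjusted p = 0.062), EIF2AK3 (0.61 ± 0.20, adjusted p = 0.0746) and EDEM1 (0.60 ± 0.17, adjusted p = 0.0475), with the larger effect in RKO, and in EDEM3 (-0.80 ± 0.23, adjusted p = 0.045). Members that passed in neither fit, such as CALR (adjusted p = 0.889), are not shown to respond alike. For CALR, A549 minus H460 was 0.07 ± 0.28.

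Levels in normoxia also differed between the lines. Of the 34 members, 20 were called lower and 3 higher in normoxic RKO than in normoxic H460, and 18 lower and 2 higher in A549 than in H460. Between RKO and A549, 7 were higher and 6 lower in RKO. Of all genes, 61.9%, 52.1% and 60.2% were called in these 3 comparisons, in either direction, so a call alone was common. The median difference of the members was -0.76 for RKO minus H460 and -0.60 for A549 minus H460, beside -0.09 and 0.00 for all genes. For RKO minus A549 it was 0.05, beside -0.08. In normoxic H460, 16 members were called higher than in both other lines, and the share of all genes that did so was not computed. XBP1 was 4.67-fold lower in RKO than in H460 (adjusted p = 1.01e-05) and 3.89-fold lower in A549 (adjusted p = 4.71e-05). CRELD2 was 5.15-fold and 4.23-fold lower (adjusted p = 2.67e-07 and 1.5e-06), and HERPUD1 3.85-fold and 2.72-fold lower (adjusted p = 4.13e-06 and 9.3e-05). No pair of lines was called for CALR, ERO1L, ERN1, EIF2AK3, DERL1 or SEC61B. The highest normoxic mean was that of CALR in RKO (464 ± 34.1 RPKM), P4HB in A549 (443 ± 52.9 RPKM) and HSPA5 in H460 (607 ± 42.6 RPKM), each ± SD of 2 libraries. In A549, CALR and HSP90B1 were within the spread of P4HB, and in H460 HSP90B1 (603 ± 62.7 RPKM) was within that of HSPA5. ERN1 and ERO1LB ranked 32nd or 33rd in every line and DERL3 34th.

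**Figure D4:**
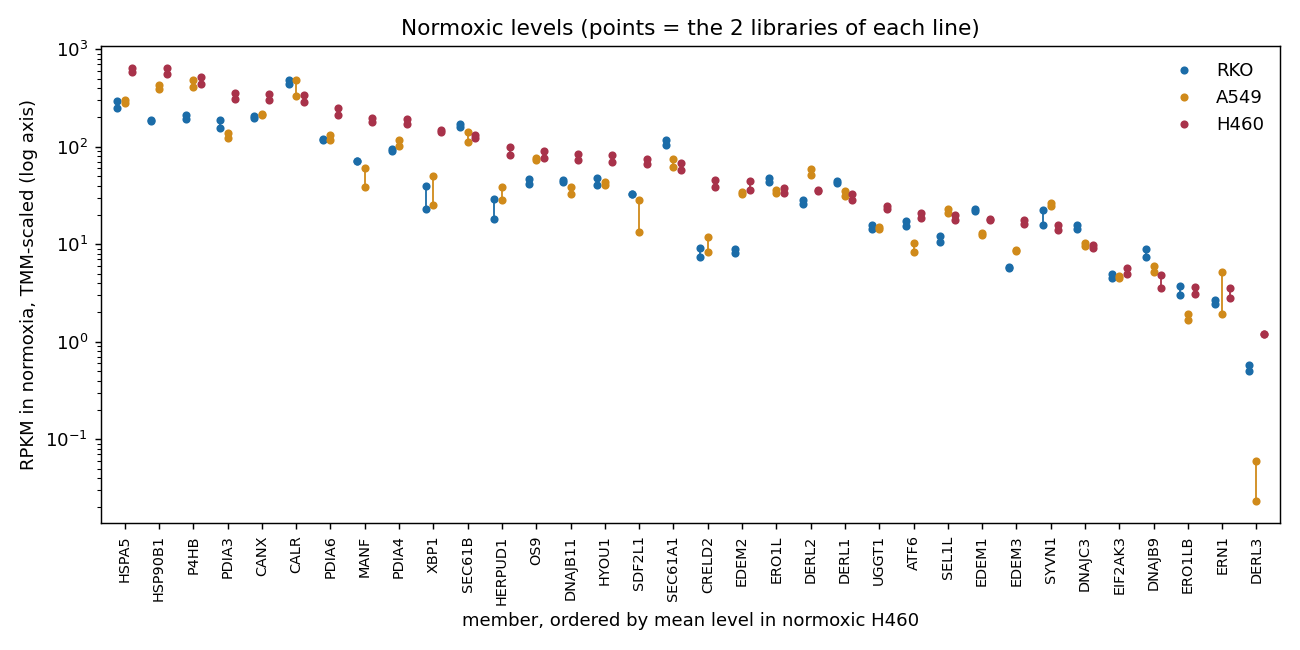
TMM-scaled RPKM in normoxia (vertical axis, logarithmic) of the 34 members in RKO, A549 and H460, ordered from left to right by the H460 mean, with a point for each of the 2 libraries joined by a line. H460 lies above both other lines for genes such as HSPA5, MANF, XBP1, HERPUD1 and CRELD2, and the joining lines for XBP1, SDF2L1 and ERN1 in A549 show replicates that stood apart.

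A wider list of 112 other genes of ER folding, disposal, translocation and stress signalling was read beside the members. In H460, 21 of 108 tested were called higher and 17 lower, with a median effect of 0.05. These were 19.4% and 15.7%, below the 24.6% and 27.3% of all tested genes. In RKO, 13 of 106 were higher and 8 lower (median -0.02), or 12.3% and 7.55%, against 18.8% and 15.1% of all genes. In A549, 4 of 109 were higher and 0 lower (median 0.06), or 3.67% and 0%, against 2.22% and 0.456% of all genes. Most of the higher calls in H460 were in the group of stress response transcription and translation genes, 11 of 25 (44%) with 3 lower (12%). The other ER-associated degradation genes split there into 4 higher (15.4%) and 6 lower (23.1%) of 26. The interaction test passed for 57 of 109, where 48.8% of all genes passed.

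DDIT3 encodes CHOP, a transcription factor of prolonged stress. It was at 55.0 and 68.3 RPKM in normoxia and 178 and 164 RPKM in hypoxia in H460 and was called higher (1.46 ± 0.11, adjusted p = 2.54e-07). In RKO it was at 21.7 and 13.6 RPKM in normoxia and 66.9 and 24.5 RPKM in hypoxia (1.30 ± 0.37, adjusted p = 0.0183), a call that DESeq2 did not make (adjusted p = 0.148) and that was lost without hypoxia replicate 1 (0.47). In A549 it was at 8.58 and 48.6 RPKM in normoxia and 10.97 and 12.7 RPKM in hypoxia, so the second normoxic library was the highest. The A549 effect of -1.27 ± 0.59 did not pass (adjusted p = 0.325), was called lower with the replicate block (-0.82, adjusted p = 0.0413), without normoxia replicate 1 (-2.04), without hypoxia replicate 1 (-1.17) or without hypoxia replicate 2 (-1.39), and turned to 0.45 without normoxia replicate 2. ATF4, whose translation PERK favours, was at 405 and 417 RPKM in normoxia and 634 and 564 RPKM in hypoxia in H460 (0.53 ± 0.10, adjusted p = 0.000416, under the fold threshold), and was called higher there without hypoxia replicate 2 (0.63, adjusted p = 7.43e-05). It was at 176 and 146 RPKM in normoxia and 172 and 107 RPKM in hypoxia in RKO and 129 and 171 RPKM in normoxia and 93.4 and 101 RPKM in hypoxia in A549. The ATF4 effects there were -0.27 ± 0.21 and -0.63 ± 0.19 and did not pass (adjusted p = 0.338 and 0.17), but A549 was called lower with the replicate block (-0.62, adjusted p = 0.00121) and by DESeq2 (adjusted p = 0.0775), and RKO was called lower without hypoxia replicate 1 (-0.59, adjusted p = 0.0435).

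By fold change, the other ER genes that stood highest in H460 were NGLY1, which strips sugars from glycoproteins on their way to the proteasome (1.92 ± 0.09, adjusted p = 6.02e-09), and BBC3, the pro-apoptotic PUMA (1.86 ± 0.11, adjusted p = 5.65e-08). The lowest were WFS1, the ER membrane protein wolframin (-1.89 ± 0.20, adjusted p = 4.19e-06), and CLGN, a calnexin homologue of the testis (-1.76 ± 0.19, adjusted p = 4.89e-06). NGLY1 rose from 18.1 ± 0.696 to 68.8 ± 1.89 RPKM (SD, n = 2). In RKO, KDELR3, a receptor that returns escaped ER proteins, rose from 4.83 ± 0.565 to 17.9 ± 0.641 RPKM (SD, n = 2, log2 1.83 ± 0.19, edgeR adjusted p = 0.000128), and the prolyl isomerase FKBP9 by 1.35 ± 0.15 (adjusted p = 0.000196). Its relatives FKBP7 (-1.2 ± 0.33, adjusted p = 0.0163) and FKBP11 (-0.95 ± 0.23, adjusted p = 0.00908) were the lowest there, and both were nearer 0 without hypoxia replicate 1 (-0.76 and -0.61, still called). In A549 the highest were QSOX1, a secreted disulfide oxidase (1.24 ± 0.18, adjusted p = 0.0148), and CRELD1 (1.2 ± 0.25, adjusted p = 0.0604). CRELD1 lost its call without hypoxia replicate 2 (0.84, adjusted p = 0.261) and under library size scaling (adjusted p = 0.114).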

How the data were processed

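Poly(A)+ RNA of 12 libraries was sequenced. The authors trimmed and aligned the reads with TopHat2 2.0.13 (Bowtie2 2.2.3.0) to GRCh37/hg19, removed poorly mapped reads, marked duplicates with Picard 1.129 and deposited strand-specific exon read counts per gene from HTSeq 0.6.1. The deposited RPKM values are these counts divided by gene length and by the total of counted reads, and served here as an alternative. Tests used the deposited counts in edgeR 4.0.16 (R 4.3.3), with TMM factors and genes above 0.5 CPM in at least 2 libraries. The printed levels are RPKM recomputed from the counts with TMM factors. DESeq2 1.42.0 and limma 3.58.1 (log2 RPKM plus 0.1 or 1) were alternatives. The fits were also run on simulated counts drawn independently for each library. Such counts lack the shared deviations of same-numbered libraries given below, so they do not show how the fits perform on these data. The 34 members and 112 other ER genes were listed with earlier results of these data known. Library values were given for members with a called change over 2-fold, for ERO1L, ERO1LB, HSPA5 and the sensors, and for a few chosen after their values were seen (HYOU1, CRELD2, MANF, EDEM2, EDEM3, CALR, P4HB, DERL3, SEC61B). Other ER genes were the 2 highest and 2 lowest called per line with at least 100 reads on average, plus ATF4 and DDIT3, and TRIB3 and PPP1R15A were named after their values were seen. Replicate numbers come from the sample titles, which do not say what a number marks. Deviations of same-numbered libraries correlated in each line (0.362 in RKO, 0.381 in A549, 0.158 in H460, across genes), so the numbers were taken to pair the libraries and a fit with the number as a block was run. Cultures are called independent in the study's design, and p-values cover the spread of 2 per group.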

Additional observations from a re-analysis of the deposited data

Results flagged for a closer look

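For 19 members the effect of hypoxia differed between the lines by the interaction test, and the pair of lines with the largest difference is given for each, as a difference of log2 fold changes. A549 minus H460 was -2.05 for HERPUD1, -1.82 for DNAJB9, -1.72 for SYVN1, -1.71 for SEC61A1, -1.07 for HSPA5, -1.04 for EIF2AK3, -0.99 for ERO1LB, -0.94 for DNAJC3 and -0.76 for EDEM1, and it was 1.01 for CRELD2. RKO minus H460 was -1.36 for ERO1L, -1.18 for EDEM3, -0.94 for HSP90B1, -0.92 for CANX, -0.82 for SEL1L, -0.73 for PDIA6 and -0.63 for SEC61B, and it was 0.73 for EDEM2. RKO minus A549 was 0.69 for P4HB.

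The interaction was no longer passed for P4HB without A549 normoxia replicate 1, for ERO1LB without H460 hypoxia replicate 1 or normoxia replicate 2, and for EDEM2 without H460 normoxia replicate 1 or hypoxia replicate 1. It was also lost without some libraries for CRELD2 (passed in 7 of 12 omissions), PDIA6 (9 of 12) and SEC61B (8 of 12). The other 13 passed in every omission.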

How the results depend on the processing

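Of 93 recomputed counts of members with no library left out, 80 stayed within 1.5 times the count reported. With a fold threshold of 2, 1 member was higher and 0 lower in RKO, 1 was lower in H460, and the normoxic differences fell to 5 for RKO against A549, to 11 for RKO against H460 and to 10 for A549 against H460, because the threshold was stricter. Members lower in H460 numbered 5 with library size scaling, with limma on log2 RPKM plus 0.1 or plus 1, and with no minimum fold. Limma with plus 1 left 1 lower in RKO, and the joint fit of 12 libraries gave 2 higher in A549, since DERL3 was then tested. The replicate block gave 1 member lower in A549 (ERN1), and it changed the calls of ATF4 and DDIT3 in A549, 6 of the interaction calls (HYOU1, SDF2L1, MANF, UGGT1, PDIA3 and OS9) and 2 normoxic calls (MANF gained for RKO against A549, HSP90B1 lost for A549 against H460). It changed no other call of a member or of a hypoxia effect reported. Leaving out single libraries gave 1 to 3 members lower in RKO, 0 to 1 in A549 and 1 to 3 in H460.

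Changes of direction occurred only for effects that were not called. With library size, limma plus 0.1 and limma plus 1, the values were 0.065, 0.064 and 0.063 for SEC61A1 in RKO (joint fit 0.040), -0.01, -0.018 and -0.018 for HSPA5 in A549, -0.0092, -0.018 and -0.016 for DNAJC3 in A549, -0.083, -0.084 and -0.083 for XBP1 in H460, and -0.33, -0.31 and -0.24 for ERN1 in H460. With single libraries left out, ranges that crossed 0 were -0.066 to 0.71 (XBP1), -0.11 to 0.11 (SEC61A1) and -0.59 to 0.037 (ATF4) in RKO. In A549 they were -0.084 to 0.22 (HSPA5), -0.78 to 0.20 (XBP1), -0.26 to 0.026 (ATF6), -0.077 to 0.22 (DNAJC3), -0.55 to 0.56 (SDF2L1), -0.29 to 0.0067 (SEC61A1) and -2.04 to 0.45 (DDIT3), and in H460 -0.16 to 0.15 (ERN1). The cause was not tested. Depth limits DERL3, with 3 to 132 reads per library.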
